A study of Homo sapiens with 9 samples.

Results

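Neuroligins, neurexins and CNTNAP2 are adhesion proteins of the nerve cell surface. Their levels were examined in 3 stably transfected lines made from T47D, a widely used human breast carcinoma cell line of luminal type. The group consisted of 7 genes, NLGN1, NLGN2, NLGN3, NLGN4X, NRXN2, NRXN3 and CNTNAP2, out of 43395 gene names on the array. Every probe that carries 1 of these names was taken, which gave 9 of 58201 probes. The genes were chosen by their known levels on these same arrays, so their values are given as a description and without a test.

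T47D-VC1 cells carry the empty pTARGET expression vector, T47D-PA5 cells carry incomplete PTH-AS, which lacks part of the 5′ side, and T47D-PA6 cells carry full-length PTH-AS. PTH-AS is a long noncoding RNA from downstream of the parathyroid hormone gene. All 3 lines passed through transfection and G418 selection, and a single line with high expression was kept for each insert, so an effect of PTH-AS cannot be told apart from a difference between selected lines. The incomplete insert was meant to separate the response to PTH-AS from the response to foreign DNA. Each line was measured on 3 single-color arrays. Nothing in the sources used here says that these came from separate cultures, so p-values measure only the spread between arrays.

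Neuroligins sit on the postsynaptic membrane and bind neurexins on the presynaptic membrane across the synaptic cleft. Inside the cell, both bind scaffold proteins that gather receptors on 1 side and the release machinery on the other. CNTNAP2 (Caspr2) is a distant relative of the neurexins that works with a contactin to cluster potassium channels along myelinated axons. The family is known chiefly from the nervous system. NLGN4X lies on the X chromosome and has a close copy, NLGN4Y, on the Y chromosome.

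Of the 7 genes, 3 had all 3 arrays of some line marked by the scanner software as well above background. These were NLGN2, NLGN4X and CNTNAP2, each with 1 probe of 60 bases. The first 30 bases of those probes are shown because the results rest on them, 5′ to 3′ as the array files give them.
NLGN4X: tctgtacggttctgtgcaaagaggtgtttt
NLGN2: ctggcattttgtggggtgttagtgccaaac
CNTNAP2: ctctctaaaagcaacagcatgtaaactaga
On hg19 the NLGN4X probe lies at chrX:5810246-5810305 on the minus strand, the NLGN2 probe at chr17:7322736-7322795 on the plus strand and the CNTNAP2 probe at chr7:148117937-148117996 on the plus strand. Each gene is read at this 1 place, so the arrays do not tell its transcript variants apart. No genome annotation was used here to say which part of the transcript each probe covers.

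Between 44% and 48% of probes were well above background on each array, and the lowest signal so marked was 9.59 to 15.2 in normalized units. A cell type marker counted for a line when any of its probes was well above background on every array of that line. Of the markers of luminal breast epithelium, 9 of 9 did so in all 3 lines. The same held for 4 of 8 neuronal markers (RBFOX3, SNAP25, SYT1 and MAP2), 3 of 4 leukocyte, 2 of 3 endothelial and 1 of 3 fibroblast markers. SYP, STMN2, NEFL, GAP43, CD3E, PECAM1, COL1A2 and PDGFRB did not count in any line. These counts were equal in the 3 lines. No probe carries the name PTH-AS, so the inserts could not be checked on these arrays. The first arrays of the 3 lines shared 1 slide, scanned earlier, and the remaining arrays were on 2 other slides, scanned in a later run.

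NLGN4X differed most among the 7 genes, and all 3 lines were apart. In T47D-VC1 cells the normalized signal was 32.2, 104 and 63.1 on the 3 arrays. In T47D-PA5 cells it was 3.1, 3.02 and 2.96, and none of these arrays was well above background. In T47D-PA6 cells it was 828, 1220 and 1310. The lowest T47D-PA6 array was thus above the highest T47D-VC1 array, and every T47D-PA5 array was below both. NLGN4X is a neuroligin known for rare mutations in autism.

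The mean NLGN4X signal was 59.5 in T47D-VC1 cells with an SD of 0.85 on the log2 scale (n = 3), and 1100 in T47D-PA6 cells with an SD of 0.36 (n = 3). The log2 difference between them was 4.21 ± 0.37 (SE), or 18.5-fold. With slide as a block it was 4.32. It was 4.69 within the earlier scan run, where each line had 1 array, and 4.33 within slide 3, which held 2 T47D-PA6 arrays and 1 T47D-VC1 array. The T47D-VC1 arrays differed more among themselves than the arrays of the other lines.

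Because no T47D-PA5 array was well above background, the distance to this line is only a bound, set against the lowest signal well above background on each array. On that basis the NLGN4X level in T47D-PA5 cells was exceeded at least 84.5-fold in T47D-PA6 cells and at least 4.58-fold in T47D-VC1 cells. The mean log2 signal was 10.1 in T47D-PA6 cells, 5.89 in T47D-VC1 cells and 1.6 in T47D-PA5 cells. Both lines with an insert therefore stood apart from the vector control, on opposite sides of it. Normexp background correction, which adds an offset of 50 to every signal, left the order of the lines and brought the T47D-PA6 over T47D-VC1 difference to 3.19 on the log2 scale. The bounds on the log2 scale became 3.92 for T47D-PA6 over T47D-PA5 cells and -0.73 for T47D-PA5 over T47D-VC1 cells.

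**Figure D1:**
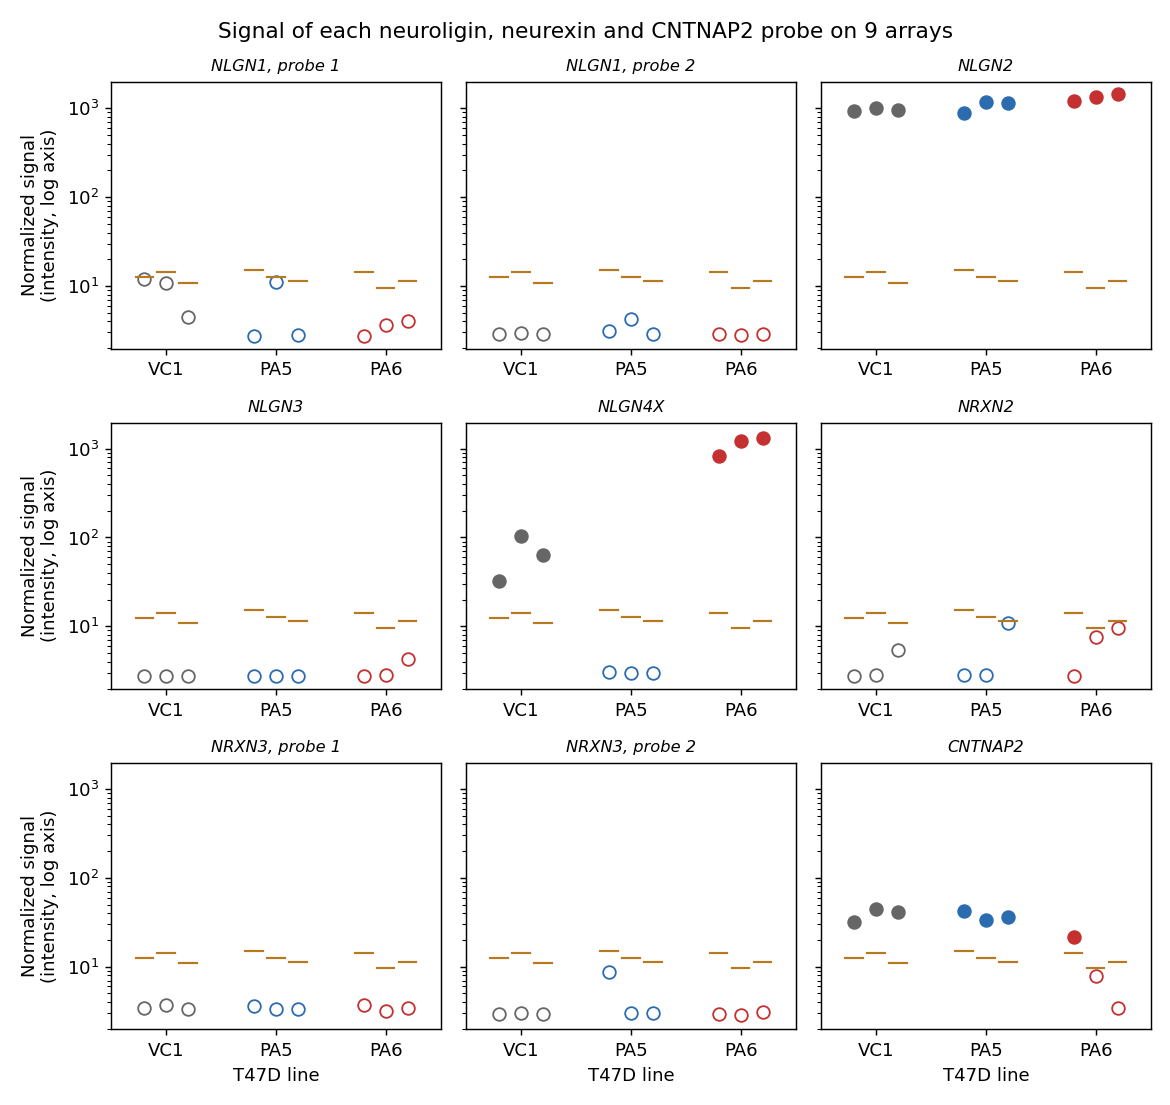
Normalized signal (log axis) of the 9 probes of the 7 genes on each array, with replicates 1 to 3 from left to right within a line. Filled points were well above background, open points were not, and the short bars mark the lowest signal well above background on that array. NLGN4X runs from about 3 in T47D-PA5 to 1310 in T47D-PA6, NLGN2 stays between 887 and 1430, and CNTNAP2 drops below the bars on 2 T47D-PA6 arrays.

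NLGN4Y was looked at after its values were seen, because the X and Y copies are close enough in sequence that a probe for 1 could pick up the other. Of its 2 probes, 1 was well above background on any array, at hg19 chrY:16954955-16955014. Its signal was 65.5, 150 and 143 in T47D-PA6 cells, 6.66, 4.23 and 3.93 in T47D-VC1 cells, and 2.89, 2.79 and 2.7 in T47D-PA5 cells. All 3 T47D-PA6 arrays were well above background and none of the other 6 were. This probe was at least 8.97-fold brighter in T47D-PA6 than in T47D-VC1 cells and at least 8.62-fold brighter than in T47D-PA5 cells. The other NLGN4Y probe stayed between 2.8 and 3.72 on all 9 arrays. Whether the first probe read NLGN4Y or NLGN4X transcripts was not tested.

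RefSeq lists 2 start sites for NLGN4X, and the single probe cannot tell which of them gave the signal. The 250 bases before each start (RefSeq, GRCh38.p14, minus strand) are shown with every CG dinucleotide in capitals, to let the 2 be compared. The first is chrX:6228868-6229117 and the second is chrX:6227088-6227337.
NLGN4X start 1: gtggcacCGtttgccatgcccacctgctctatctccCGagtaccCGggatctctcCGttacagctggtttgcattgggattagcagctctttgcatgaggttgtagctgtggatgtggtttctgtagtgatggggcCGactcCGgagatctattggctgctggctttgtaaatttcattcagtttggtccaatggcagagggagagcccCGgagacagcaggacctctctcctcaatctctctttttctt
NLGN4X start 2: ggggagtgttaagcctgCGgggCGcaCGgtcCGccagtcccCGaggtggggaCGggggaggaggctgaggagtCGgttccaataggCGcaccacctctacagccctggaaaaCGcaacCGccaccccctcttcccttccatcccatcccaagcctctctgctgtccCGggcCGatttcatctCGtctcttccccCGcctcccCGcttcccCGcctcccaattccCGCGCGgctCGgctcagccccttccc
The first holds 7 CG dinucleotides and the second 20, against a median of 11 over the same stretch of 35116 RefSeq promoters. The GC content is 52.4% and 68%. Methylation of these stretches was not measured here.

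NLGN2, the neuroligin of inhibitory synapses, was well above background on all 9 arrays. Its normalized signal was 940, 994 and 949 in T47D-VC1 cells, 887, 1190 and 1150 in T47D-PA5 cells and 1200, 1330 and 1430 in T47D-PA6 cells. T47D-PA6 arrays were above all arrays of both other lines, while T47D-PA5 and T47D-VC1 arrays overlapped. The log2 difference was 0.46 ± 0.13 (SE) for T47D-PA6 over T47D-VC1 cells, 0.3 ± 0.13 for T47D-PA6 over T47D-PA5 cells and 0.15 ± 0.13 for T47D-PA5 over T47D-VC1 cells. The first of these is 1.37-fold, much smaller than the differences of NLGN4X. The last was -0.08 within the earlier scan run and 0.27 within the later one.

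CNTNAP2 was dim and was lower in T47D-PA6 cells. Its signal was 31.6, 44.8 and 41.6 in T47D-VC1 cells and 41.9, 33.6 and 36.2 in T47D-PA5 cells. In T47D-PA6 cells it was 21.6, 7.84 and 3.4, and only the first of these arrays was well above background. All T47D-PA6 arrays were below all arrays of the other lines, which overlapped with each other.

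The log2 difference of CNTNAP2 was -2.23 ± 0.55 (SE) for T47D-PA6 over T47D-VC1 cells, -2.16 ± 0.55 for T47D-PA6 over T47D-PA5 cells and -0.07 ± 0.55 for T47D-PA5 over T47D-VC1 cells. Its size depended on the array and on the treatment of dim signals. For T47D-PA6 over T47D-VC1 cells the value was -0.55 within the earlier scan run and -3.01 within slide 3, and it was -2.91 without T47D-PA6 replicate 1 and -1.58 without T47D-PA6 replicate 3. With signals raised to the lowest one well above background it was -1.55, and with normexp background correction it was -0.45.

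The 4 remaining genes were not well above background on any array. NLGN1, a neuroligin of excitatory synapses, had signals of 2.71 to 11.9 at its first probe and 2.83 to 4.24 at its second. NLGN3, an X-linked neuroligin found at both kinds of synapse, ranged from 2.73 to 4.34. NRXN2 ranged from 2.77 to 11, and its highest values were 11 in T47D-PA5 replicate 3 and 9.5 in T47D-PA6 replicate 3. The 2 probes of NRXN3 ranged from 3.21 to 3.74 and from 2.9 to 8.77. These values were at or below the lowest signals well above background, so no order among the lines was read from them. The arrays thus gave a level for 2 of the 4 neuroligins and for neither NRXN2 nor NRXN3.

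In the fit over all genes, an adjusted p under 0.05 was reached by 2 of the 3 genes that passed the filter in T47D-PA6 over T47D-VC1 cells, NLGN4X (higher) and CNTNAP2 (lower), where 10.0% of all 20106 tested genes reached it. In T47D-PA5 over T47D-VC1 cells 1 did, NLGN4X (lower), against 1.67% of all genes. In T47D-PA6 over T47D-PA5 cells NLGN4X (higher) and CNTNAP2 (lower) did, against 9.71%. Since the genes were selected on these levels, nothing is read from these counts.

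The proteins that neuroligins, neurexins and CNTNAP2 work with were then tested as a list of 113 genes in 6 roles. The array named 112 of them and 66 passed the filter. P-values are from limma, with Benjamini-Hochberg adjustment across the 20106 tested genes. In T47D-PA6 over T47D-VC1 cells 3 rose and 5 fell of the 66, or 12.1%, close to the 10.0% of all genes. In T47D-PA6 over T47D-PA5 cells 2 rose and 7 fell, or 13.6% against 9.71%. In T47D-PA5 over T47D-VC1 cells 1 rose, or 1.52% against 1.67%. The median log2 difference of the list was 0.05, -0.09 and 0.12 in that order, beside -0.03, 0 and -0.03 over all genes. With slide as a block, 14 of the 66 partner genes passed in T47D-PA6 over T47D-VC1 cells, where 11.4% of all genes did. On the same basis, 11 passed in T47D-PA6 over T47D-PA5 cells, where 9.73% did, and 3 in T47D-PA5 over T47D-VC1 cells, where 3.02% did.

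**Figure D2:**
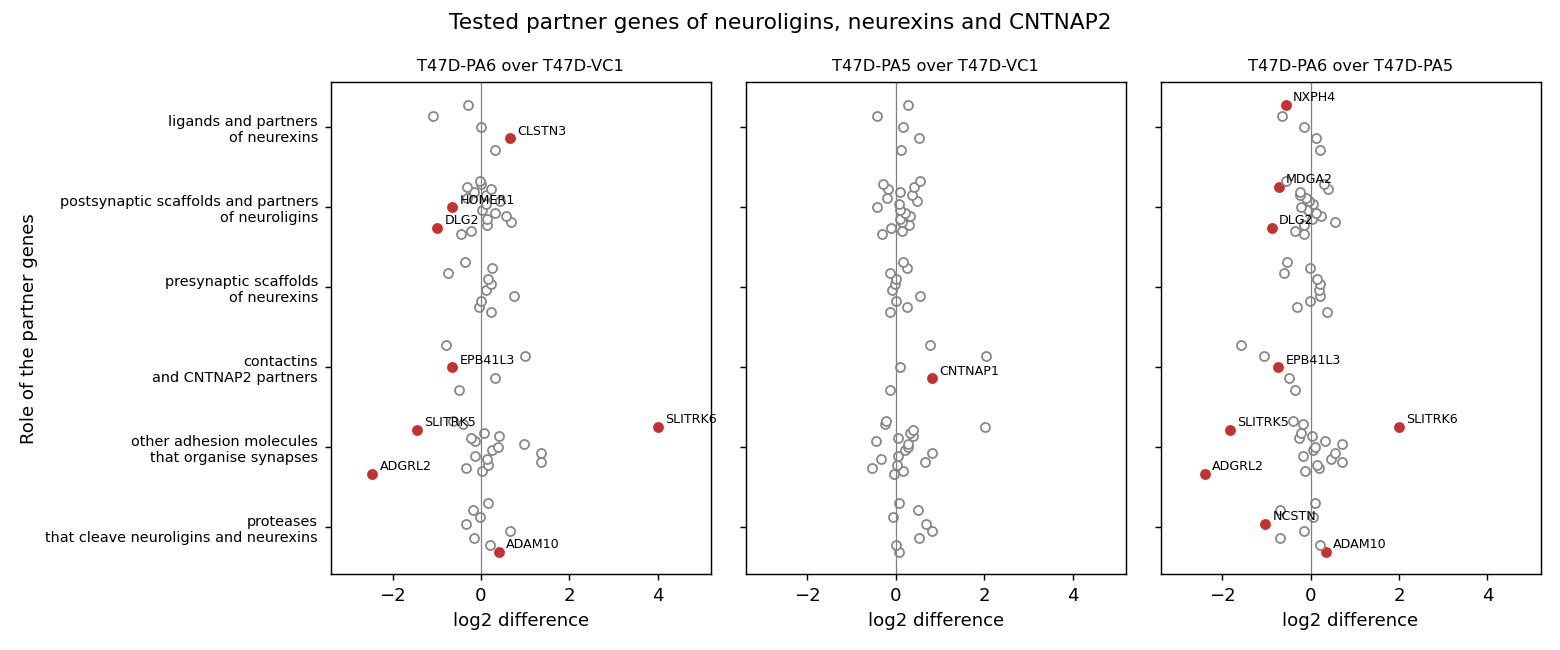
Log2 differences of the 66 tested partner genes (1 point a gene) by role, in the 3 comparisons of 3 arrays with 3. Filled red points have a limma adjusted p under 0.05 over all genes. SLITRK6 stands at 4 and ADGRL2 at -2.46 in T47D-PA6 over T47D-VC1, and CNTNAP1 is the filled point in T47D-PA5 over T47D-VC1.

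Of the 19 tested among other adhesion molecules that organise synapses, 1 rose and 2 fell in each comparison of T47D-PA6 cells, or 15.8%, against 10.0% and 9.71% of all genes. SLITRK6, a leucine-rich repeat protein of the cell surface, had signals of 47.7, 163 and 145 in T47D-VC1 cells, 305, 473 and 509 in T47D-PA5 cells and 1160, 2070 and 1940 in T47D-PA6 cells. The 3 lines did not overlap, and the T47D-PA5 arrays lay between the others. T47D-PA6 cells exceeded T47D-VC1 cells by 4 ± 0.46 (SE) on the log2 scale (limma adjusted p = 0.0021) and T47D-PA5 cells by 1.99 ± 0.46 (limma adjusted p = 0.032). The difference between T47D-PA5 and T47D-VC1 cells, 2.01 ± 0.46, did not pass (limma adjusted p = 0.076).

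ADGRL2 (latrophilin-2), a receptor that binds teneurins and FLRT proteins, went the other way. Its signal was 144, 269 and 302 in T47D-VC1 cells, 213, 244 and 201 in T47D-PA5 cells and 47.3, 39.5 and 37.8 in T47D-PA6 cells. It fell by 2.46 ± 0.26 (SE) on the log2 scale against T47D-VC1 cells (limma adjusted p = 0.0013), and the fall against T47D-PA5 cells was similar, with a log2 difference of -2.4 ± 0.26 (limma adjusted p = 0.0023). SLITRK5, a relative of SLITRK6, also fell, with 80.3, 99.3 and 78 in T47D-VC1 cells, 113, 108 and 112 in T47D-PA5 cells and 33, 31.1 and 29.9 in T47D-PA6 cells. Its log2 difference was -1.45 ± 0.11 against T47D-VC1 cells (limma adjusted p = 0.00048) and -1.82 ± 0.11 against T47D-PA5 cells (limma adjusted p = 0.00019). So 2 SLITRK genes changed in opposite directions in T47D-PA6 cells, and SLITRK4 did not pass, at 0.07 ± 0.13 over T47D-VC1 cells (limma adjusted p = 0.78).

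Among the 19 postsynaptic scaffolds and partners of neuroligins, none rose and 2 fell in each comparison of T47D-PA6 cells, or 10.5%, near the share of all genes. DLG2 (PSD-93), a scaffold of the family that binds the neuroligin tail, had 381, 546 and 565 in T47D-VC1 cells, 419, 468 and 480 in T47D-PA5 cells and 214, 262 and 268 in T47D-PA6 cells. Its log2 difference was -0.99 ± 0.17 (SE) against T47D-VC1 cells (limma adjusted p = 0.011) and -0.88 ± 0.17 against T47D-PA5 cells (limma adjusted p = 0.016). HOMER1, which joins Shank scaffolds to glutamate receptors, had means of 241, 181 and 154 in the VC1, PA5 and PA6 lines. In T47D-PA6 cells HOMER1 fell by 0.65 ± 0.12 against T47D-VC1 cells (limma adjusted p = 0.013). The T47D-PA5 mean lay between. Neither the log2 difference of -0.42 for T47D-PA5 over T47D-VC1 cells (limma adjusted p = 0.13) nor that of -0.23 for T47D-PA6 over T47D-PA5 cells (limma adjusted p = 0.26) passed. MDGA2, which blocks neuroligins from binding neurexins, had 188, 139 and 152 in T47D-VC1 cells, 222, 199 and 210 in T47D-PA5 cells and 153, 112 and 122 in T47D-PA6 cells. T47D-PA6 cells were lower than T47D-PA5 cells by a log2 difference of -0.72 ± 0.15 (limma adjusted p = 0.023), while T47D-VC1 cells lay between, with -0.31 for T47D-PA6 and 0.41 for T47D-PA5 cells over them (limma adjusted p = 0.24 for both). The lead scaffold DLG4 (PSD-95) had means of 216, 237 and 349 in the VC1, PA5 and PA6 lines and did not pass in any comparison.

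Few extracellular ligands and partners of neurexins were tested, 5 of 19 listed. CLSTN3 (calsyntenin-3), a postsynaptic membrane protein, had 2600, 2420 and 2060 in T47D-VC1 cells, 3200, 3500 and 3480 in T47D-PA5 cells and 4010, 3390 and 3710 in T47D-PA6 cells. It rose by 0.65 ± 0.12 (SE) in T47D-PA6 over T47D-VC1 cells on the log2 scale (limma adjusted p = 0.013). The difference of T47D-PA5 over T47D-VC1 cells, 0.53 ± 0.12, did not pass (limma adjusted p = 0.068). Between T47D-PA6 and T47D-PA5 cells CLSTN3 differed by 0.12 ± 0.12 (limma adjusted p = 0.57). NXPH4, a secreted neurexophilin, had means of 2540, 3080 and 2070 in the VC1, PA5 and PA6 lines and was lower in T47D-PA6 than in T47D-PA5 cells by a log2 difference of -0.57 ± 0.15 (limma adjusted p = 0.045, or 0.065 with slide as a block). Against T47D-VC1 cells, neither line passed. None of the 10 tested presynaptic scaffolds passed in any comparison by limma or by the methods' t-test, and 2, 1 and 3 of them had an unadjusted limma p under 0.05 in T47D-PA6 over T47D-VC1, T47D-PA5 over T47D-VC1 and T47D-PA6 over T47D-PA5 cells.

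Of the contactins and other partners of CNTNAP2, 5 of 17 listed were tested, and no contactin passed the filter. EPB41L3 (protein 4.1B), which binds the tail of CNTNAP2 inside the cell, had 448, 429 and 376 in T47D-VC1 cells, 372, 507 and 466 in T47D-PA5 cells and 318, 236 and 250 in T47D-PA6 cells. It fell by 0.65 ± 0.16 (SE) against T47D-VC1 cells (limma adjusted p = 0.039, or 0.076 with slide as a block). Against T47D-PA5 cells it fell by 0.74 ± 0.16 (limma adjusted p = 0.024, or 0.057 with slide as a block). CNTNAP1 (Caspr), the related protein of the paranodal junction, was the only partner gene to pass in T47D-PA5 over T47D-VC1 cells, with 67.9, 58.2 and 58.5 in T47D-VC1 cells and 127, 101 and 96.9 in T47D-PA5 cells. It rose by 0.81 ± 0.15 (limma adjusted p = 0.041, or 0.055 with slide as a block).

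All 8 listed proteases that cut neuroligins and neurexins were tested. ADAM10, a shedding protease, had 741, 721 and 756 in T47D-VC1 cells, 777, 780 and 770 in T47D-PA5 cells and 963, 1000 and 985 in T47D-PA6 cells. It rose by 0.41 ± 0.08 (SE) against T47D-VC1 cells (limma adjusted p = 0.018). Against T47D-PA5 cells it rose by 0.34 ± 0.08 (limma adjusted p = 0.034, or 0.055 with slide as a block). NCSTN (nicastrin), a γ-secretase subunit, had 5850, 5730 and 5860 in T47D-VC1 cells, 8910, 9710 and 9410 in T47D-PA5 cells and 6050, 3990 and 4000 in T47D-PA6 cells. The log2 difference of T47D-PA6 over T47D-PA5 cells was -1.03 ± 0.16 (limma adjusted p = 0.0077). Over T47D-VC1 cells it was 0.68 in T47D-PA5 cells (limma adjusted p = 0.079) and -0.34 in T47D-PA6 cells (limma adjusted p = 0.22), neither of which passed. The other γ-secretase subunits on the list did not pass.

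The partner genes differed in how far they depended on single arrays, over 21 ways of processing the data. SLITRK5 passed in all 21 in both comparisons of T47D-PA6 cells, and ADGRL2 did so against T47D-PA5 cells. Against T47D-VC1 cells, ADGRL2, SLITRK6 and DLG2 passed in 20, all but the methods' t-test, as did NCSTN in T47D-PA6 over T47D-PA5 cells. Against T47D-PA5 cells, SLITRK6 and MDGA2 passed in 14, and neither did without any one of the T47D-PA5 arrays or without T47D-PA6 replicate 2 or 3. DLG2 passed there in 17 and not without T47D-PA5 replicate 2 or 3 or T47D-PA6 replicate 2. It also did not pass there with the mean of the tested probes in place of the brightest. HOMER1 passed in 18 and not without T47D-VC1 replicate 2 or 3, and CLSTN3 in 17 and not without replicate 3 of T47D-VC1 or of T47D-PA6. The mean of the tested probes lost the call on CLSTN3 too.

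The calls on ADAM10, EPB41L3, NXPH4 and CNTNAP1 were lost more often. ADAM10 passed in 16 against T47D-VC1 cells, not without replicate 2 or 3 of T47D-VC1 or T47D-PA6, and in 10 against T47D-PA5 cells, not without those arrays or any T47D-PA5 array. Against T47D-PA5 cells it also did not pass with the mean of the tested probes. EPB41L3 passed in 9 against T47D-VC1 cells, not without T47D-VC1 replicate 1 or replicate 2 or 3 of any line, and in 13 against T47D-PA5 cells, not without replicate 2 or 3 of either line compared. NXPH4 passed in 9 and not without any array other than T47D-PA6 replicate 1. CNTNAP1 passed in 8 and not without any array other than replicate 1 of T47D-VC1 or T47D-PA6.

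Genes beside NLGN4X and CNTNAP2 were compared to see whether the neighbourhood moved with them. The nearest 5 tested genes on each side were taken by the middle of their hg19 probes, at -2028 to 2057 kb from NLGN4X and -4121 to 583 kb from CNTNAP2. Probes and transcripts with no gene symbol counted as genes. Such a probe lies 334 kb from the NLGN4X probe, at chrX:6144368-6144427, and whether it falls inside NLGN4X was not worked out. In T47D-PA6 over T47D-VC1 cells 0 of 10 neighbours passed for either gene by limma or by the methods' t-test, with an unadjusted limma p under 0.05 for 1 neighbour of NLGN4X and 2 of CNTNAP2. In T47D-PA5 over T47D-VC1 cells none passed either by limma or the methods' t-test, with 1 and 0 at an unadjusted limma p under 0.05.

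In T47D-PA6 over T47D-PA5 cells 2 of the 10 neighbours of NLGN4X passed, both higher in T47D-PA6 cells, beside 9.71% of all genes. PUDP, a phosphatase gene whose probe lies at hg19 chrX:6967361-6967420, differed by 0.42 ± 0.11 (SE) on the log2 scale (limma adjusted p = 0.045), with means of 1450, 1280 and 1710 in the VC1, PA5 and PA6 lines. With slide as a block it did not pass (limma adjusted p = 0.075), and it passed in 7 of the 21 ways of processing. A transcript with no gene symbol at chrX:3782442-3782501 differed by 0.87 ± 0.17 (limma adjusted p = 0.016, or 0.041 with slide as a block) and passed in 15. STS, steroid sulfatase, at 1461 kb from the NLGN4X probe, differed by 0.32 ± 0.6 (limma adjusted p = 0.8). No neighbour of CNTNAP2 passed in this comparison, by limma or the methods' t-test, with 1 at an unadjusted limma p under 0.05. EZH2, which encodes a histone methyltransferase and lies 387 kb away, had means of 1430, 1420 and 1320 in the VC1, PA5 and PA6 lines.

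**Figure D3:**
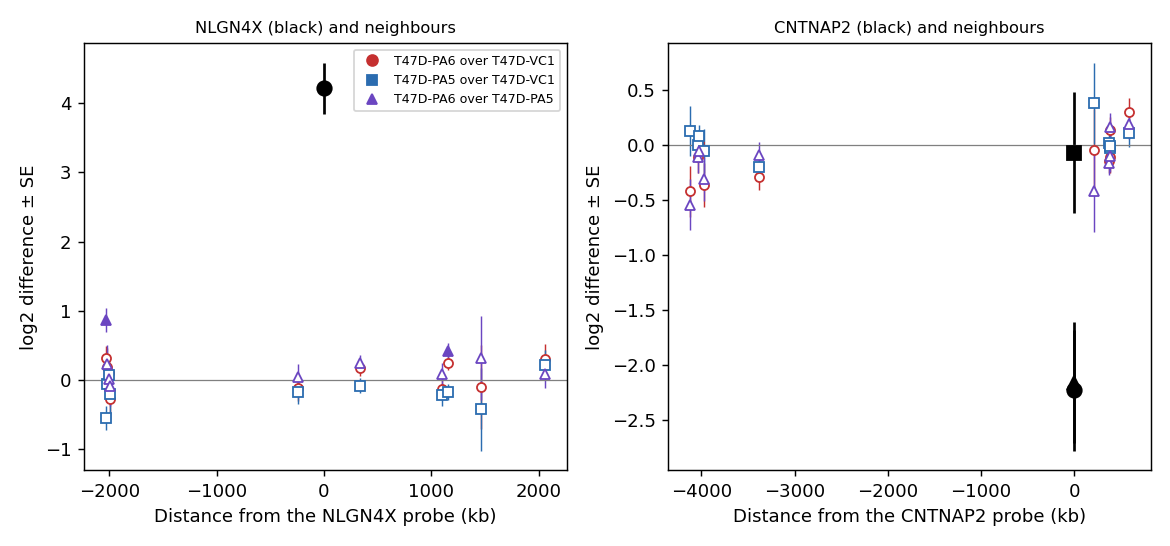
Log2 difference ± SE of the 10 nearest tested genes against the distance of their probes from the NLGN4X probe (left) and the CNTNAP2 probe (right), for the 3 comparisons. Filled neighbours passed in the limma fit, black points are NLGN4X (T47D-PA6 over T47D-VC1 alone, since T47D-PA5 gives only a bound) and CNTNAP2. Neighbours of NLGN4X stay below 1 while NLGN4X is at 4.21.

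The genes whose log2 signals ran most like NLGN4X over the 9 arrays were GCDH, CYSTM1, AQP1, MAPRE2 and TRAPPC5, with Pearson's r of 0.98 to 0.99 among 20090 genes. These values are a description over 3 lines of 3 arrays, and they give no test. AQP1, a water channel, had means of 212, 91.9 and 431 in the VC1, PA5 and PA6 lines. MAPRE2, a microtubule end-binding protein, had 130, 81.2 and 261. The other 3 had the same order of lines with far smaller differences, such as 919, 797 and 1030 for GCDH, a mitochondrial dehydrogenase.

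The genes most like CNTNAP2 were SUGT1P4-STRA6LP, FAM210B, ZNF678, GDE1 and EIF4EBP2, with r of 0.969 to 0.986. SUGT1P4-STRA6LP was well above background on all arrays of T47D-VC1 and T47D-PA5 cells and on none of T47D-PA6 cells, with means of 23.5, 19.4 and 7.57. FAM210B had 6520, 6290 and 4550 in the same order, and ZNF678, a zinc finger gene, had 345, 339 and 206. In each of these genes, T47D-VC1 and T47D-PA5 means lay close together and the T47D-PA6 mean was lower.

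**Figure D4:**
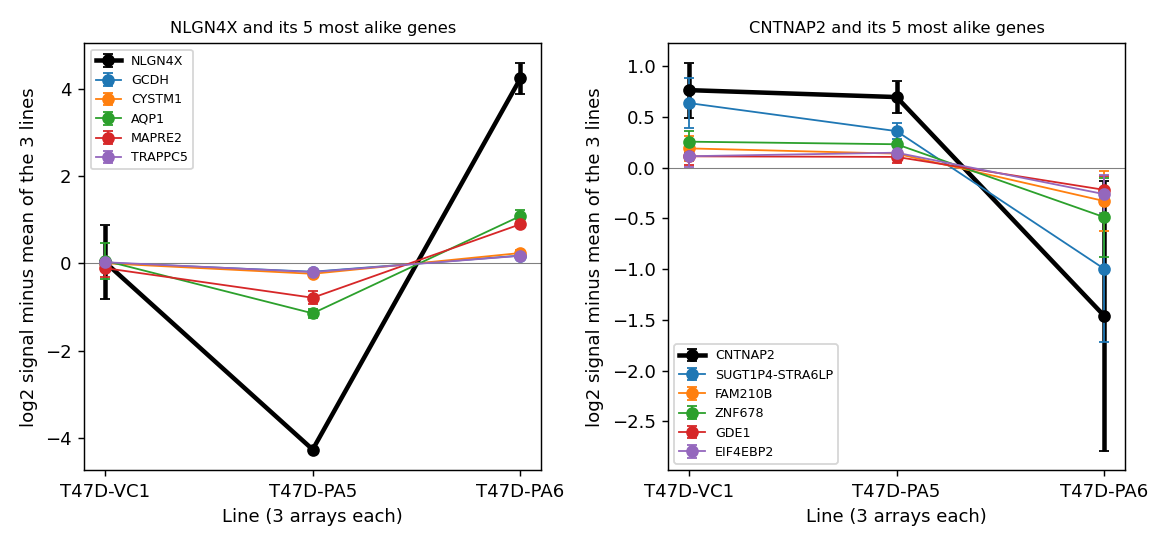
Mean log2 signal of each line (3 arrays, error bars SD) minus the mean of the 3 lines, for NLGN4X (left) and CNTNAP2 (right) in black and the 5 genes most like each. NLGN4X in T47D-PA5 was not well above background, and neither were 2 of 3 CNTNAP2 arrays in T47D-PA6, so the black points there are measured values near background.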

How the data were processed

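Total RNA of the 3 T47D lines was labelled and hybridised to single-color Agilent arrays, 3 for each line. For each array the authors deposited spot intensity as Agilent Feature Extraction gave it, already background-subtracted. The file headers name version 10.7.1.1 and the submitters' processing notes 9.5.1.1, and probe coordinates are on hg19. The authors also deposited a table of quantile-normalized intensity, used here as an alternative. Control spots and 46 to 117 outlier spots per array were left out, no spot was saturated, replicate spots were averaged as log2 values, followed by quantile normalization. Testing was limited to the 26171 probes with every array of some line well above background, and the brightest stood for its gene. Of 58201 probes, 31127 were named by symbol, 3343 by accession and 496 by synonym from a RefSeq gene table, and the others kept the name in the files.

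The 9 arrays were fitted together with limma 3.58.1 in R 4.3.3 (lmFit and eBayes, 6 residual degrees of freedom), with Benjamini-Hochberg adjustment and a threshold of 0.05. The fit was also run on simulated data with independent errors and no slide or scan-run effect, so that run cannot speak to such effects. For a line with no array well above background, folds are bounds: on each of its arrays, the probe's signal was raised to the dimmest signal so marked unless already brighter. The number of arrays limits the precision.

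The 7 genes and the lists were chosen with earlier results of these data known, and the study itself lists NLGN4X and CNTNAP2 for their ratio of T47D-PA6 to T47D-VC1. Named are all 7 genes, up to 3 partner genes per role and direction with the largest difference among those that passed, neighbours that passed, and the 5 genes most like NLGN4X and CNTNAP2. DLG4, SLITRK4, STS and EZH2 were named after their values were seen. Promoters came from RefSeq (GRCh38.p14) and had an entry for 6 of the 7 genes. Alternatives were other scalings, filters, blocks, probe rules and tests, and each array left out. The qRT-PCR and xenograft data were not analysed here.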

Additional observations from a re-analysis of the deposited data

How the results depend on the processing

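NLGN4X kept its order of lines and CNTNAP2 its lower T47D-PA6 level under every alternative that retained these genes. Both dropped out under the alternative filter that required a signal well above background on every array. Normexp background correction brought NLGN4X in T47D-PA6 over T47D-VC1 cells from 4.21 to 3.19 on the log2 scale and its bounds from 6.4 to 3.92 (T47D-PA6 over T47D-PA5) and from -2.2 to -0.73 (T47D-PA5 over T47D-VC1). It brought CNTNAP2 from -2.23 to -0.45 against T47D-VC1 cells and from -2.16 to -0.41 against T47D-PA5 cells. Within the earlier scan run CNTNAP2 was at -0.55 and -0.96. With replicates 2 and 3 only, an alternative added after seeing the data, it was at -3.06 against T47D-VC1 cells, and the NLGN4X bound in T47D-PA5 over T47D-VC1 cells was -2.75.

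The share of all genes that passed moved with the processing, and the number of partner genes with it. In T47D-PA6 over T47D-VC1 cells 8 partners passed, 14 with slide as a block, 37 with replicates 2 and 3 only (35.2% of all genes) and 2 with the methods' t-test. With 1 array left out there were 4 to 16 (3.46% to 13.3% of all genes): 16 and 14 without replicate 1 of T47D-VC1 and of T47D-PA6, 4 without T47D-VC1 replicate 3, and 5 without T47D-VC1 replicate 2 or T47D-PA6 replicate 3. In T47D-PA6 over T47D-PA5 cells there were 9, 11 with slide as a block (9.73%) and 5 with no filter (2.91%). In that comparison 32 passed with replicates 2 and 3 only (33.8%) and 5 with the methods' t-test. With 1 array left out there were 3 to 16 (3.53% to 14.3%): 16 without T47D-PA6 replicate 1, 5 without T47D-PA5 replicate 1, 4 without T47D-PA6 replicate 3, and 3 without T47D-PA5 replicate 2 or 3 or T47D-PA6 replicate 2. In T47D-PA5 over T47D-VC1 cells there was 1, 4 with an intensity trend (2.38%), 0 with no filter (0.471%), 2 with normexp (2.03%), 3 with slide as a block and 27 with replicates 2 and 3 only (18.9%). With 1 array left out there were 0 to 3 (0.496% to 2.85%): 3 without T47D-PA6 replicate 1, 2 without T47D-VC1 replicate 1 and 0 without any other.

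Neighbour genes that passed in T47D-PA6 over T47D-PA5 cells numbered 2, and 1 with the 75th percentile shift, the mean of probes, no filter, normexp, the compared lines alone or slide as a block, 0 with the methods' t-test, 4 with replicates 2 and 3 only, 0 without replicate 2 or 3 of either line, and 1 without T47D-PA5 replicate 1 or T47D-VC1 replicate 2 or 3. With replicates 2 and 3 only, 8 passed in T47D-PA6 over T47D-VC1 and 1 in T47D-PA5 over T47D-VC1 cells. The cause of these shifts was not tested.

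Deviations of same-numbered arrays from their line's mean correlated at 0.0992 to 0.337, with 8 of 9 correlations over 0.1, and the replicate 1 arrays shared a slide and scan run. As 1 correlation was not over 0.1 and the labels name no shared batch, the numbers were not taken to pair the arrays. Of the 9 arrays, 4 correlated best with their own number in both other lines. With the replicate number as a block, 14, 3 and 13 partner genes passed in T47D-PA6 over T47D-VC1, T47D-PA5 over T47D-VC1 and T47D-PA6 over T47D-PA5 cells (13%, 2.44% and 12.1% of all genes) and 1 neighbour gene in the last. EPB41L3 against T47D-VC1 cells, CNTNAP1 and PUDP did not pass (limma adjusted p = 0.057, 0.063 and 0.052). The other limit is signal: NLGN1, NLGN3, NRXN2 and NRXN3 were not well above background, and CNTNAP2 was dim.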

Other observations

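Apart from SLITRK6, 5 partner genes had a log2 difference of 1 or more and did not pass. LGI1, a secreted protein that binds ADAM22, had signals of 131, 22.5 and 19.2 in T47D-VC1 cells, 384, 103 and 102 in T47D-PA5 cells and 198, 38.2 and 58.8 in T47D-PA6 cells, and its difference between T47D-PA5 and T47D-VC1 cells was 2.05 ± 0.9 (SE; limma adjusted p = 0.32). The first array of each line was the highest of that line. NRCAM, a cell adhesion molecule of the axon, had 301, 94.9 and 94.2 in T47D-VC1 cells, 212, 260 and 245 in T47D-PA5 cells and 232, 39 and 55.6 in T47D-PA6 cells, with -1.58 ± 0.67 for T47D-PA6 over T47D-PA5 cells (limma adjusted p = 0.19). NXPH3, a neurexophilin, had 1200, 436 and 406 in T47D-VC1 cells and 298, 262 and 284 in T47D-PA6 cells, with -1.09 ± 0.36 (limma adjusted p = 0.093). FLRT3, a ligand of latrophilins, had 110, 26.2 and 27.6 in T47D-VC1 cells and 145, 90 and 99.6 in T47D-PA6 cells, with 1.35 ± 0.57 (limma adjusted p = 0.18). LRFN2, an adhesion protein of the postsynaptic membrane, was dim, with 11.3, 17.1 and 20.5 in T47D-VC1 cells, 13.2, 45.3 and 35.7 in T47D-PA5 cells and 28.9, 49.7 and 47.3 in T47D-PA6 cells, and with 1.37 ± 0.46 for T47D-PA6 over T47D-VC1 cells (limma adjusted p = 0.096). Its first T47D-VC1 and T47D-PA5 arrays were not well above background, and the first array of each line was its lowest. In FLRT3, LGI1, NRCAM and NXPH3 the first T47D-VC1 array was above the other 2, and that array was on slide 1 of the earlier scan run.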
